A study of Mus musculus with 4 samples.

Results

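The gene segments of the T cell receptor beta, gamma and delta loci were followed in DNT cells of the mouse, regulatory T cells called double-negative because they carry an αβ T cell receptor but neither CD4 nor CD8. They are the rows whose gene type in GENCODE vM21 is a T cell receptor type and whose symbol begins with Trb, Trg, Tcrg or Trd, apart from the beta constant genes Trbc1 and Trbc2. That gave 59 of the 35275 genes measured: 38 of the beta locus (22 V, 2 D and 14 J), 12 of the gamma locus (7 V, 1 J and 4 constant genes) and 9 of the delta locus (5 V, 2 D and 2 J). In the annotation the loci lie on mouse chromosomes 6 (beta), 13 (gamma) and 14 (delta). Other segments of these loci, the delta constant gene among them, are not analysed here.

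RNA was sequenced from 2 OX40-knockout and 2 wild-type libraries, all from the strain C57BL/6. The gene Tnfrsf4 encodes OX40, a receptor that costimulates activated T cells, and what part of it the knockout lacks is not in the labels. In every group the cells had been converted from naive CD4 T cells, then sorted as CD3 and TCRαβ positive and as negative for NK markers, CD4 and CD8. Libraries are named by genotype and by the replicate number in their labels. The labels give neither the age of the mice nor whether the libraries of a genotype are separate animals, so the spread behind each p-value may be a technical one.

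T cell receptor genes are assembled in the thymus, where the recombinase joins 1 V segment to a J segment, with a D segment between them in the beta and delta loci. The transcript of the joined exon is spliced to a constant region. Unrearranged segments can be transcribed too, as germline transcripts, and αβ T cells often keep rearranged gamma genes. The delta segments lie inside the alpha locus, so joining of an alpha V to an alpha J removes most of them from that chromosome. NK cells leave these loci largely unrearranged.

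The annotated sequences show how small the D and J segments are, which bears on how their values are read. The beta D segments and the beta J segments on which most of the results turn are printed 5′ to 3′ from GENCODE vM21 (GRCm38), with capitals for the J motif that encodes a phenylalanine and the glycines of the conserved FGXG core.
Trbd1: gggacagggggc
Trbd2: gggactgggggggc
Trbj1-1: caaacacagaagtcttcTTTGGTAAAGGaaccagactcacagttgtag
Trbj1-3: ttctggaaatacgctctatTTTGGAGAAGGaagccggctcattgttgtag
Trbj1-5: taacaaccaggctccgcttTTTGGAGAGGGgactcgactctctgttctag
Trbj1-7: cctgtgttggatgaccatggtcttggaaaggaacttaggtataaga
Trbj2-6: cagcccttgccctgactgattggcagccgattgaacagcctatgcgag
Trbj2-7: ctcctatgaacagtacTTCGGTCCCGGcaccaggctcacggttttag

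The letters searched, on both strands, were TTTGG or TTCGG, then any 4 bases, then GG. They were found in 11 of the 14 beta J segments measured and in 70.0% of the 80 J segments annotated over all T cell receptor loci. On the opposite strand they were found in 0 of the 80. Trbj1-6, Trbj1-7 and Trbj2-6 did not hold these letters. Trbd1 is 12 bases long and Trbd2 is 14 bases long, so a read laid on the germline over either of them also covers bases outside it.

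The V segments of the beta and gamma loci come in families of close copies, shown here by the last 45 annotated bases of 5 V segments, with the TGT codon of the conserved cysteine in capitals.
Trbv12-2: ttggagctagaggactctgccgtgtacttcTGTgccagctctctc
Trbv12-1: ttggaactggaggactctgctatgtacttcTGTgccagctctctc
Trbv13-2: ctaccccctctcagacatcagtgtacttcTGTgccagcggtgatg
Trgv2: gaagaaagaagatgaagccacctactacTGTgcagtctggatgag
Tcrg-V1: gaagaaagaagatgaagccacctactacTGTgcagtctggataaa

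Over whole annotated transcripts, Trbv12-1 and Trbv12-2 were 88.3% identical and Trbv13-2 and Trbv13-3 were 90.6% identical. Trgv2 was 95.2% identical to Tcrg-V1, and Tcrg-C1 and Tcrg-C2 were 96.1% identical. Since the treatment of reads that fit several copies is unknown, the split within each of these families is uncertain.

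Of the 59 segments, 54 reached a mean of 1 RPKM (reads per length of transcript and per library total) over the 4 libraries and entered the gene test. The pseudogene Trbv10 was listed at 0 in all 4 libraries, and Trbv21, Trbv30, Trbj2-4 and Trdv2-1 lay below the filter. Library totals behind the values were between 22220888 and 24395743 reads. Transcripts of the targeted gene, Tnfrsf4, remained at 12.1 and 9.38 RPKM in OX40-knockout 1 and 2, against 18.2 and 12.3 RPKM in wild-type 1 and 2. This is no check of the labels, because the removed part is not given, and the libraries are called here as labelled. OX40-knockout 1 differed from the others in Cd4, at 10.1 RPKM there and 2.06 RPKM in OX40-knockout 2, against 0.82 and 1.97 RPKM in the wild-type. Cd8a and Cd8b1 were highest in OX40-knockout 1 too. Cd8a stood at 16.6 and 9.03 RPKM in the knockout, against 10.5 and 10.4 RPKM in the wild-type, above Cd4 in every library. The class II gene H2-Ab1 was also high in OX40-knockout 1. It stood at 163 and 65.5 RPKM in the knockout, against 88.7 and 69.5 RPKM in the wild-type. The other dendritic and myeloid genes listed went both ways. Cd68 was highest in OX40-knockout 1, at 18.9 and 12.9 RPKM in the knockout, against 13.9 and 16.1 RPKM in the wild-type. Itgax, Lyz2 and Cd14, none above 4.05 RPKM in any library, were lowest in OX40-knockout 1. Genes of the αβ T cell list were present in all libraries. The T cell gene Cd3e stood at 328 and 248 RPKM in the knockout, against 332 and 280 RPKM in the wild-type. Trac, the alpha constant gene, stood at 279 and 159 RPKM in the knockout, against 250 and 203 RPKM in the wild-type. Of the 11 genes listed, 7 were lower in both number 2 libraries, beside 18.7% of all genes, and 1 was higher, beside 24.0%. Of 8 B and plasma cell genes, Ms4a1, Pax5 and Igkc were listed at 0 in every library, but Ighm was at 21.9 and 10.2 RPKM in the knockout, against 12.9 and 11.5 RPKM in the wild-type, and the list summed to 26.8 and 13 RPKM in the knockout, against 15.9 and 14.1 RPKM in the wild-type.

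The beta V segments were used broadly. Pielou evenness of their RPKM shares, which is 1 when all segments are equal, was 0.877 and 0.896 in OX40-knockout 1 and 2, against 0.888 and 0.896 in wild-type 1 and 2. The matching effective numbers of segments, the number of equally used segments that would give the same entropy, were 15.03 and 15.97 in the knockout libraries and 15.58 and 15.96 in the wild-type libraries, out of 22. The group means of evenness were 0.887 ± 0.0139 in the knockout and 0.892 ± 0.00554 in the wild-type libraries (SD, n = 2 each), a difference smaller than the spread within the knockout group.

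14 of the 22 beta V segments held at least 3% of the beta V sum on average. Trbv12-2 led with a mean share of 12.0%, at 55.4 and 58.5 RPKM in the knockout libraries, against 91.7 and 63.6 RPKM in the wild-type libraries. Trbv3 followed with 11.1%, at 51.0 and 55.2 RPKM in the knockout libraries, against 73.2 and 65.9 RPKM in those of the wild-type. For both segments the knockout libraries lay below the wild-type libraries without overlap.

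Trbv13-2, a V segment common among the invariant NKT cells of the mouse, did not share this order. It stood at 71.2 and 37.1 RPKM in OX40-knockout 1 and 2, against 59.0 and 38.5 RPKM in wild-type 1 and 2. The groups overlapped, and the number 1 libraries lay above the number 2 libraries. In OX40-knockout 1 it was the leading segment, with 13.8% of the beta V sum, while its share was 7.61% in OX40-knockout 2, 8.71% in wild-type 1 and 7.16% in wild-type 2. Its relative Trbv13-3 had 5.29% and 3.10% in the knockout libraries, against 3.93% and 3.81% in the wild-type libraries.

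The next segments were Trbv1, with a mean share of 9.19% and values of 50.7 and 47.3 RPKM in the knockout and 54.5 and 49.3 RPKM in the wild-type, and Trbv16, with 8.41% and values of 47.1 and 40.03 RPKM in the knockout and 58.9 and 40.9 RPKM in the wild-type libraries. Both overlapped between genotypes. Trbv29, Trbv14, Trbv19 and Trbv13-1 each held between 5.23% and 5.62%, and Trbv12-1, Trbv15, Trbv2 and Trbv17 between 3.27% and 4.63%. At the low end Trbv5, Trbv20, Trbv26 and Trbv31, which lies beyond the constant genes in inverted orientation, ranged from 7.68 to 15.7 RPKM. The remaining 4 segments, Trbv10, Trbv21, Trbv23 and Trbv30, never exceeded 1.67 RPKM.

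**Figure D1:**
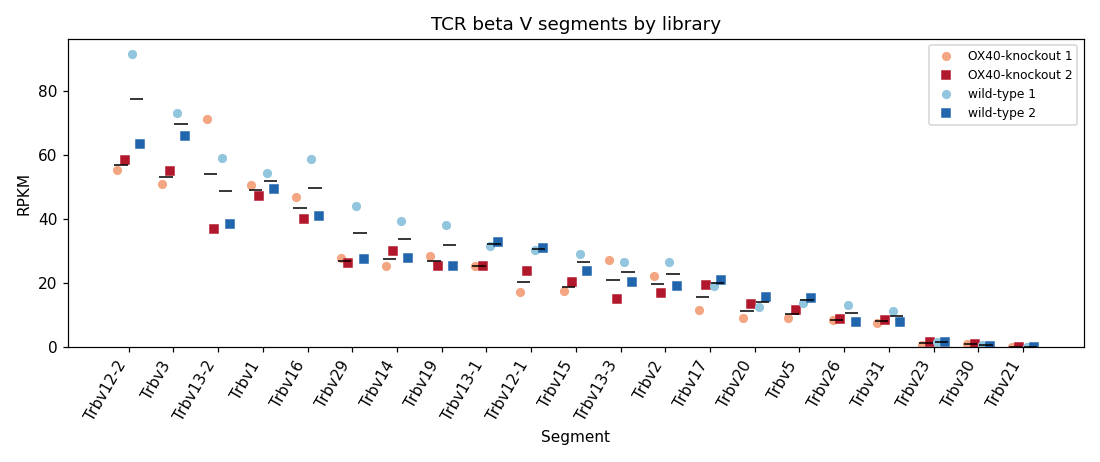
RPKM (vertical axis) of the 21 beta V segments above 0, ordered by mean, in each of the 4 libraries, with a black line at each genotype's mean (n = 2). Trbv12-2 and Trbv3 lie lower in both knockout libraries, and for Trbv13-2 OX40-knockout 1 sits at 71.2 RPKM while the number 2 libraries lie at 37.1 and 38.5 RPKM.

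Beta V usage differed least between the number 2 libraries of the 2 genotypes. The share of usage that would have to move to turn one library's profile into the other's was 4.44% between OX40-knockout 2 and wild-type 2. It was 10.6% between the knockout libraries and 8.45% between the wild-type libraries. OX40-knockout 1 was 9.38% from wild-type 1 and 12.4% from wild-type 2, with Trbv13-2 the segment that differed most in each of its comparisons. OX40-knockout 2 was 6.2% from wild-type 1, with neither genotype nor number in common. That was closer than either pair of the same genotype.

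In summed level the beta V segments were lower in both knockout libraries. The sums were 515 and 487 RPKM in OX40-knockout 1 and 2, against 677 and 538 RPKM in wild-type 1 and 2, a log2 ratio of group means of -0.28. Wild-type 1 carried much of this: without it the log2 ratio was -0.10, and over the other leave-one-out settings it ran from -0.43 to -0.24. With 2 libraries a group the smallest p of an exact two-sided permutation test is 0.33, so sums and evenness were not tested. In these bulk samples fewer cells of a kind and less RNA per cell cannot be told apart.

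The constant genes were set beside the V sum. Trbc1 and Trbc2 together stood at 690 and 987 RPKM in the knockout libraries, against 823 and 825 RPKM in the wild-type libraries. As a percentage of that level the beta V sum was 74.7% and 49.3% in the knockout and 82.3% and 65.2% in the wild-type libraries, so the genotypes overlapped on this scale.

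The comparison of OX40-knockout with wild-type asked which segments differ with the genotype. By limma on log2(RPKM + 1), 0 of the 54 tested segments had an adjusted p under 0.05, beside 0.0% of all 11625 genes tested, and adjusted p over the segments lay between 0.975 and 0.993. At an unadjusted p under 0.05 there were 6 segments, or 11.1%, beside 1.39% of all genes (162 genes, 64 higher and 98 lower; 85 and 82 with TMM factors). 5 of the 6 were beta V segments with lower values in the knockout. Without OX40-knockout 2 the order of the shares turned round, with 10 segments (18.5%) beside 3832 genes (33%). Segments of 1 locus are not independent of each other, and the close copies among them may share reads.

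With all 4 libraries, beta V segments were mostly lower in the knockout. Of 19 tested, 18 had a lower mean, beside 56.6% of all genes, and 1 (Trbv13-2) a higher mean, beside 43.4%. Both knockout libraries lay below both of the wild-type for 6 segments, beside 17.8% of all genes. The count of 18 was the same with TMM factors, with median-of-ratios factors and when scaled by Trbc1 + Trbc2. Their median log2 difference, knockout minus wild-type, was -0.26, beside -0.03 over all genes. Both values rest largely on wild-type 1: without it 13 of the 19 were lower (68.4%, beside 59.4% of all genes) and 6 higher, and the median was -0.03, beside -0.04 over all genes. Leaving out any other library gave between 17 and 19 lower.

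The segments of lowest p in this direction can be read library by library. Trbv12-1 stood at 17.2 and 23.8 RPKM in the knockout libraries, against 30.5 and 31.2 RPKM in the wild-type libraries (log2 difference -0.58, SE 0.18, limma adjusted p = 0.975). Trbv13-1 was at 25.3 and 25.3 RPKM in the knockout, against 31.6 and 33.0 RPKM in the wild-type libraries. In both segments the genotypes did not overlap, although neither passed the limma threshold.

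Trbv15 was at 17.5 and 20.4 RPKM in the knockout libraries, against 29.2 and 23.9 RPKM in the wild-type. Trbv5 was at 9.24 and 11.7 RPKM in the knockout, against 13.9 and 15.5 RPKM in the wild-type. Trbv3 (values above) had a log2 difference of -0.38 with an SE of 0.11. The limma adjusted p was 0.975 for each of these 3 segments.

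The D and J segments of the beta locus split by replicate number. Trbd1, the D segment upstream of the first J cluster, had 10 and 131 reads in OX40-knockout 1 and 2, against 21 and 131 reads in wild-type 1 and 2. The exact 95% Poisson intervals were 4.80 to 18.4 and 110 to 155 reads in the knockout, and 12.999 to 32.1 and 110 to 155 reads in the wild-type libraries. The number 2 libraries were therefore high in both genotypes, by a ratio per library total of 12.9 (95% interval 6.79 to 27.5) in the knockout and 5.94 (3.73 to 9.91) in the wild-type. These intervals cover counting error only.

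Trbj1-1, the J segment next to Trbd1, had 3 and 127 reads in the knockout libraries and 3 and 91 reads in the wild-type libraries. It was singled out after its values were seen. The ratio of number 2 to number 1 was 41.7 (95% interval 13.9 to 205) in the knockout and 28.9 (9.57 to 143) in the wild-type. In RPKM it stood at 2.81 and 117 in OX40-knockout 1 and 2, against 2.69 and 77.7 in wild-type 1 and 2.

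The other 6 segments of the first J cluster were higher in the number 2 libraries too, by smaller factors. Their ratios of number 2 to number 1 lay between 2.10 and 3.34 in the knockout and between 1.51 and 2.31 in the wild-type. Trbj1-3, the most read of the J segments together with Trbj1-5, had 92 and 261 reads in the knockout and 102 and 240 reads in the wild-type libraries. Trbj1-5 had 87 and 186 reads in the knockout and 109 and 265 reads in the wild-type libraries. Trbj1-7, which lacks the letters of the motif, had 21 and 54 reads in the knockout and 32 and 71 reads in the wild-type libraries.

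In the second J cluster the ratios lay on both sides of 1. Its 6 tested segments had ratios of number 2 to number 1 between 0.492 and 1.83 in the knockout and between 0.770 and 3.72 in the wild-type, and 4 of the 6 in the knockout and 5 of the 6 in the wild-type were higher in number 2. Trbj2-1 had 14 and 26 reads in the knockout, against 11 and 43 reads in the wild-type, and Trbj2-3 had 17 and 23 reads in the knockout, against 19 and 46 reads in the wild-type. Both were higher in both number 2 libraries on the RPKM scale, as were 24.0% of all genes, and the rest of the 6 overlapped. Trbj2-7, its most read segment, had 74 and 68 reads in the knockout and 67 and 102 reads in the wild-type libraries, and the pseudogene Trbj2-6 had 49 and 51 reads in the knockout, against 63 and 51 reads in the wild-type. Trbd2, upstream of this cluster, had 8 and 7 reads in the knockout libraries, against 1 and 6 reads in the wild-type libraries (log2 difference 1.52, SE 0.72, limma adjusted p = 0.975). For Trbd2 the knockout-to-wild-type ratio was 8.36 (95% interval 1.12 to 371) between the number 1 libraries and 1.26 (0.363 to 4.54) between the number 2 libraries.

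**Figure D2:**
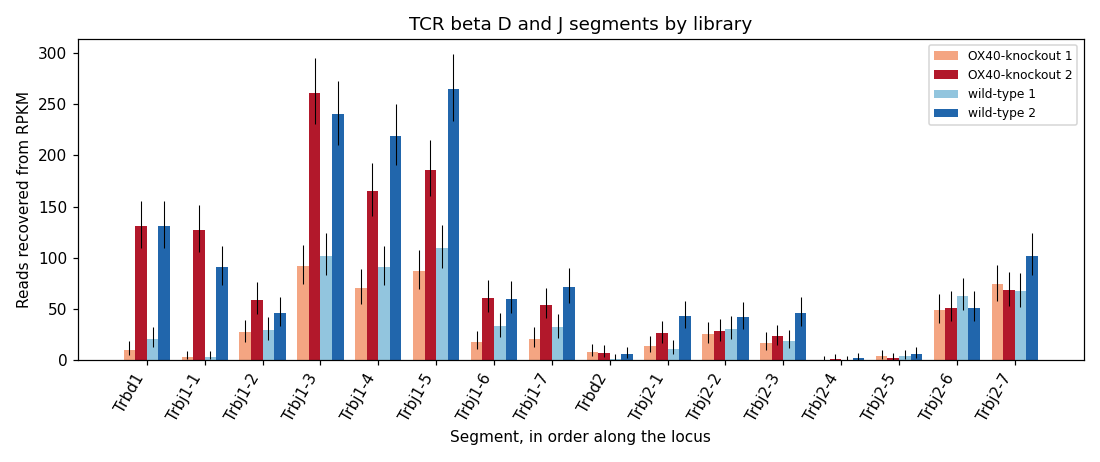
Reads recovered from RPKM (vertical axis) on the beta D and J segments in order along the locus, 1 bar per library, with exact 95% Poisson intervals as error bars. From Trbd1 to Trbj1-7 the number 2 libraries stand above the number 1 libraries in both genotypes, with 127 and 91 reads on Trbj1-1 in number 2, and 3 in each number 1 library, while Trbj2-6 and Trbj2-7 lack this split.

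The share of beta J reads on the first cluster was 63.5% and 82.1% in OX40-knockout 1 and 2, against 67.3% and 77.3% in wild-type 1 and 2. There were 12.0 and 30.2 beta D and J reads per 100 beta V reads in the knockout and 10.3 and 28.8 in the wild-type libraries. Beta V segments themselves did not share this direction, with 3 of 19 higher in both number 2 libraries, beside 24.0% of all genes, and 7 of 19 lower, beside 18.7%. Evenness of beta J reads was close in all libraries, at 0.850 and 0.842 in the knockout and 0.852 and 0.856 in the wild-type libraries.

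The delta locus split the same way. All 5 delta V segments together stood at 10.8 and 49.5 RPKM in OX40-knockout 1 and 2, against 12.4 and 37.1 RPKM in wild-type 1 and 2. As a percentage of the beta V sum that was 2.10% and 10.2% in the knockout and 1.83% and 6.90% in the wild-type libraries. Within each replicate number the genotypes lay closer together than the libraries of a genotype did. The delta segments on which this rests are printed here, with the FGXG core of the J segment and the TGT codon of the V segments in capitals.
Trdj1: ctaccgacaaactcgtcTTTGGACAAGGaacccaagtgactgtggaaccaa
Trdv4: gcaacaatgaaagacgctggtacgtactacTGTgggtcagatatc
Trdv5: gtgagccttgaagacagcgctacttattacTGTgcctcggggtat

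Trdj1, the most read of the delta segments, had 59 and 224 reads in the knockout libraries, against 50 and 178 reads in the wild-type libraries. Its ratio of number 2 to number 1 was 3.74 (95% interval 2.79 to 5.07) in the knockout and 3.39 (2.46 to 4.73) in the wild-type. Trdj2 had 17 and 56 reads in the knockout and 14 and 37 reads in the wild-type libraries. Both delta J segments were thus higher in the number 2 library of each genotype.

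Trdv4 had the largest split of the delta V segments, with 2.09 and 19.5 RPKM in the knockout, against 3.37 and 14.97 RPKM in the wild-type libraries. The ratio on recovered reads was 9.35 (95% interval 5.58 to 16.8) in the knockout and 4.44 (2.91 to 7.003) in the wild-type. Trdv5, which lies inverted beyond the delta constant gene, was at 5.22 and 18.4 RPKM in the knockout and 4.37 and 13.4 RPKM in the wild-type libraries. Trdv2-2 was at 2.09 and 7.19 RPKM in the knockout, against 2.37 and 3.92 RPKM in the wild-type libraries. Trdv1 was at 1.32 and 4.14 RPKM in the knockout, against 2.18 and 4.81 RPKM in the wild-type. In each of these 4 segments both number 2 libraries lay above both number 1 libraries, beside 24.0% of all genes.

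Delta V usage differed between libraries as well. Trdv4 held 19.2% and 39.5% of the delta V sum in OX40-knockout 1 and 2, against 27.1% and 40.3% in wild-type 1 and 2, and Trdv5 held 48.1% and 37.1% in the knockout and 35.2% and 36.2% in the wild-type. Evenness over the 5 segments was 0.805 and 0.777 in the knockout and 0.863 and 0.768 in the wild-type libraries. The profiles of OX40-knockout 2 and wild-type 2 were 5.46% apart and those of OX40-knockout 1 and wild-type 1 were 13.3% apart. The knockout libraries were 20.2% and the wild-type libraries 14.2% apart, so the number 1 libraries lay about as far from each other as the wild-type libraries did. The delta V sum rests on 84 and 388 reads in the knockout and 101 and 316 reads in the wild-type libraries, so the shares in the number 1 libraries are the less precise.

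The delta D segments were almost unread. Trdd2 had 2 and 3 reads in the knockout libraries, against 1 and 1 in the wild-type libraries, and was the segment of lowest p among those higher in the knockout (log2 difference 1.11, SE 0.22, limma adjusted p = 0.975). Its knockout-to-wild-type ratio was 2.09 (95% interval 0.109 to 123) in number 1 and 3.24 (0.260 to 170) in number 2, so no difference was detectable at this depth. Trdd1 had 0 and 1 reads in the knockout and 0 in each of the wild-type libraries.

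By genotype the delta V sum had a log2 ratio of 0.28, knockout over wild-type, which the spread within the groups far exceeded. It was -1.19 without OX40-knockout 2, -0.30 without wild-type 1, 1.00 without OX40-knockout 1 and 1.28 without wild-type 2.

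**Figure D3:**
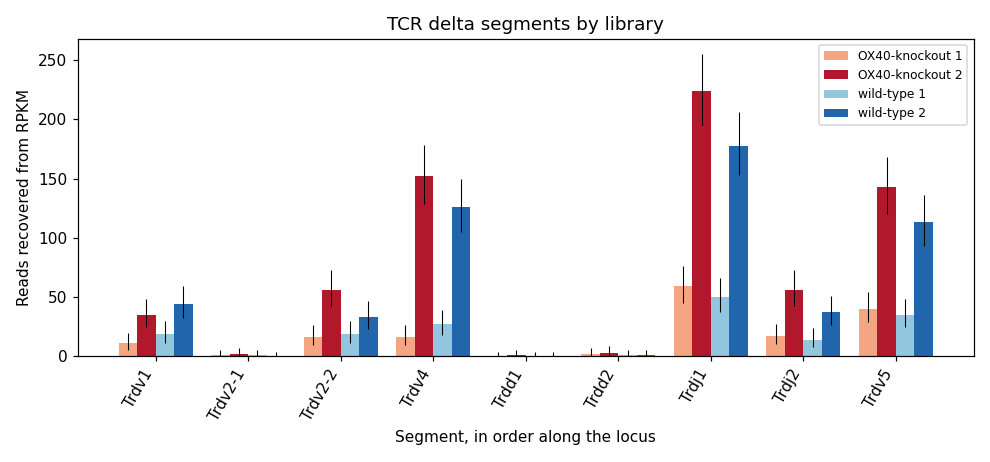
Reads recovered from RPKM (vertical axis) on the 9 delta segments in order along the locus, 1 bar per library, with exact 95% Poisson intervals as error bars. On Trdj1 the number 2 libraries have 224 and 178 reads, against 59 and 50 in the number 1 libraries, and Trdv4 and Trdv5 show the same order.

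Over the 3 loci together, 22 of 54 segments (40.7%) were higher in both number 2 libraries than in both number 1 libraries, beside 24.0% of all genes, and 8 (14.8%) were lower, beside 18.7%. Scaled by Trbc1 + Trbc2 the counts were nearly even, at 17 higher and 16 lower. That scaling shifts every gene of a library, and the shares of all genes under it were not computed. A level at least 2-fold higher in number 2 than in number 1 within each genotype, on the RPKM + 1 scale, was seen for 10 segments (18.5%), beside 0.697% of all genes. 6 of these were beta D and J segments and 4 were delta segments. The reverse was seen for 0 segments, beside 0.086% of all genes. By genotype, 7 segments were higher and 9 (16.7%) lower without overlap, beside 8.66% and 17.8% of all genes.

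NK cell genes split by replicate number too, although NK markers had been sorted against. All 7 genes of the NK list were higher in both number 2 libraries than in both number 1 libraries, beside 24.0% of all genes. Their summed level was 301 and 1090 RPKM in OX40-knockout 1 and 2, against 550 and 944 RPKM in wild-type 1 and 2. Ncr1, which encodes the NK receptor NKp46, was at 0.183 and 7.49 RPKM in the knockout and 0.408 and 7.93 RPKM in the wild-type libraries. Tyrobp, the signalling adaptor DAP12, was at 27.3 and 260 RPKM in the knockout, against 60.3 and 189 RPKM in the wild-type. None of the 7 was at 0 in any library, and the part of these cells or genes in the D, J and delta values was not tested.

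The list of γδ T cell genes did not follow the number in that direction. Its summed level was 283 and 106 RPKM in the knockout, against 157 and 124 RPKM in the wild-type libraries. Of its 10 genes, 1 was higher in both number 2 libraries, beside 24.0% of all genes, and 4 were lower, beside 18.7%. Tmem176a and Tmem176b made up most of the summed level, with 111 and 133 RPKM in OX40-knockout 1 and 42.3 and 49.3 RPKM in OX40-knockout 2. Only 7 of the 10 genes reached the filter of the gene test. The part of γδ T cells in the delta values was not tested. Sox13, a transcription factor of γδ T cells, was at 0.735 and 0.658 RPKM in the knockout and 0.171 and 1.01 RPKM in the wild-type libraries.

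Gamma V usage moved by between 2.76% and 7.56% from library to library, the largest distance being that between the knockout libraries. That usage was narrow: Trgv2, a V segment of the Tcrg-C2 cluster, held 75.1% and 67.8% of the gamma V sum in the knockout libraries and 73.0% and 71.1% in the wild-type libraries. Evenness over the 7 segments was 0.424 and 0.501 in the knockout, against 0.440 and 0.478 in the wild-type libraries, an effective number between 2.28 and 2.65. Per length, Trgv2 stood at 196 and 192 RPKM in the knockout and 176 and 182 RPKM in the wild-type libraries, so the genotypes did not overlap but lay within a narrow band (log2 difference 0.11, SE 0.10, limma adjusted p = 0.975).

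Tcrg-V4 and Tcrg-V1 made up most of the rest. Tcrg-V4, of the Tcrg-C1 cluster, was at 38.7 and 45.4 RPKM in the knockout, against 37.1 and 37.1 RPKM in the wild-type libraries. Tcrg-V1, of the Tcrg-C4 cluster, was at 18.7 and 36.6 RPKM in the knockout and 22.5 and 27.8 RPKM in the wild-type libraries, higher in the number 2 libraries. The last 4 V segments stayed low, with Tcrg-V3 at 4.11 and 3.67 RPKM in the knockout, against 2.46 and 3.05 RPKM in the wild-type (log2 difference 0.39, SE 0.18, limma adjusted p = 0.975). Tcrg-V7 was at 1.93 and 2.53 RPKM in the knockout, against 1.11 and 1.87 RPKM in the wild-type. Both lay higher in the knockout libraries without overlap, on at most 32 reads each. In all, 4 of the 7 gamma V segments were higher without overlap, beside 8.66% of all genes. Only 1, Tcrg-V6, was lower without overlap, beside 17.8% of all genes. Tcrg-V6, used by IL-17-producing γδ T cells of mouse tissues, was at 0.670 and 1.43 RPKM in the knockout, against 1.496 and 2.54 RPKM in the wild-type libraries. Tcrg-V5, the V segment of skin γδ T cells, was at 0.922 and 1.51 RPKM in the knockout and 0.588 and 1.68 RPKM in the wild-type, and the genotypes overlapped.

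The gamma constant genes were ordered alike in every library. Tcrg-C2 stood at 262 and 253 RPKM in the knockout and 253 and 245 RPKM in the wild-type libraries, a log2 difference of 0.05 with an SE of 0.10. Tcrg-C1 was at 102 and 85.4 RPKM in the knockout, against 91.1 and 83.5 RPKM in the wild-type. Tcrg-C4 was at 56.8 and 78.9 RPKM in the knockout, against 63.0 and 74.6 RPKM in the wild-type, higher in both number 2 libraries as its V segment Tcrg-V1 was. Tcrg-C3 stood at 1.30 and 1.02 RPKM in the knockout, against 1.66 and 1.42 RPKM in the wild-type, far below the others. Summed, they reached 423 and 419 RPKM in the knockout libraries and 409 and 404 RPKM in the wild-type. Tcrg-C2 held between 60.5% and 62.0% of that in each.

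Set beside the beta chain, the gamma constant genes reached 61.3% and 42.4% of the summed level of Trbc1 and Trbc2 in the knockout libraries, against 49.7% and 49.0% in the wild-type libraries. The only gamma J segment measured, Trgj4, had 11 and 14 reads in the knockout and 19 and 10 in the wild-type libraries. By genotype the gamma V sum was 261 and 283 RPKM in the knockout and 241 and 256 RPKM in the wild-type libraries, a log2 ratio of 0.13, and of 0.07 without OX40-knockout 2. Scaled by Trbc1 + Trbc2 the genotypes surrounded each other, with OX40-knockout 1 highest and OX40-knockout 2 lowest.

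**Figure D4:**
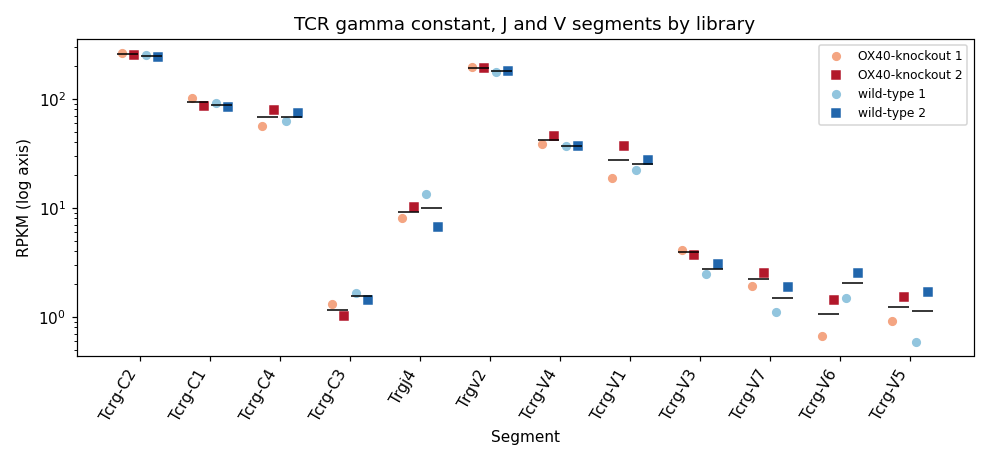
RPKM on a log axis of the 4 gamma constant genes, Trgj4 and the 7 gamma V segments in each library, with a black line at each genotype's mean (n = 2). Tcrg-C2 lies between 245 and 262 RPKM and Trgv2 between 176 and 196 RPKM, with little spread beside the low segments Tcrg-V6 and Tcrg-V5.

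The loci can be set side by side. The median log2 difference of number 2 from number 1 was 1.30 in the knockout and 1.15 in the wild-type over the first beta J cluster. In the same order of genotypes it was 1.52 and 1.15 over the delta V segments, 0.09 and 0.47 over the second beta J cluster and 0.08 and -0.36 over the beta V segments. It was 0.27 and 0.29 over the gamma V segments and -0.12 and -0.09 over the gamma constant genes, beside 0.01 and 0.03 over all genes. The median log2 difference of knockout from wild-type was -0.26 over the beta V segments, 0.11 over the gamma V segments and 0.12 over the delta V segments. The labels do not say what the replicate number marks.

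**Figure D5:**
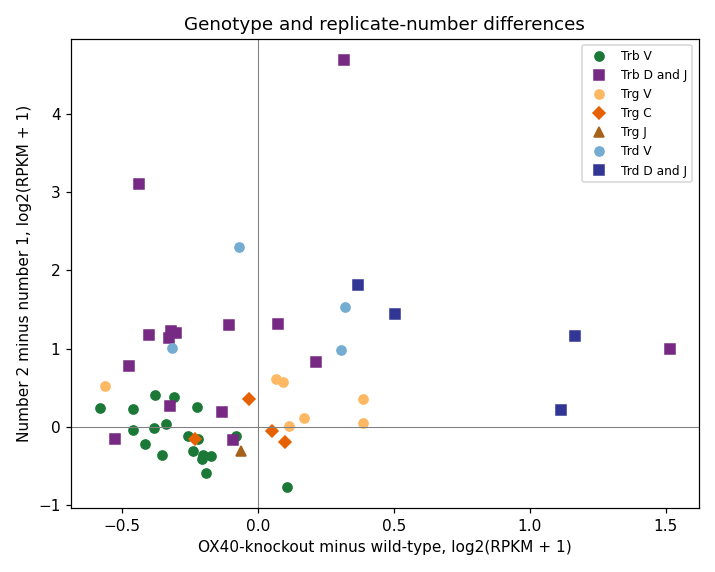
Each of the 54 tested segments by its log2(RPKM + 1) difference between OX40-knockout and wild-type (horizontal axis) and its mean difference between number 2 and number 1 (vertical axis). The delta segments, and the beta D and J segments other than Trbj2-5 and Trbj2-6, lie above 0 vertically, some of them narrowly. Trbj1-1 is at the top, and the beta V segments lie left of 0 apart from Trbv13-2.

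Genes of receptor assembly were read from a list of 27. The recombinase genes Rag1 and Rag2 were listed at 0 in all 4 libraries, and Dntt, which encodes the polymerase that adds bases at the joints, stayed between 0.129 and 0.449 RPKM. Ptcra, the surrogate alpha chain of thymocytes, was at 0 and 0.0691 RPKM in the knockout, against 0 and 0.0319 RPKM in the wild-type libraries. Of the 23 members tested, 9 had a higher mean in the knockout, beside 43.4% of all genes, and 14 a lower mean, beside 56.6%. The limma threshold was passed by 0 of them, beside 0.0% of all genes. The median log2 difference of these members was -0.12, beside -0.03 over all genes.

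Some end-joining genes of the list were well above 0. Xrcc6, encoding Ku70, stood at 35.9 and 36.3 RPKM in the knockout, against 38.5 and 40.8 RPKM in the wild-type libraries. Nhej1, encoding the joining factor XLF, was at 2.66 and 3.33 RPKM in the knockout, against 4.78 and 4.11 RPKM in the wild-type. Dclre1c, Prkdc, Xrcc4, Xrcc5 and Lig4 also had a lower mean in the knockout, while Paxx, Poll and Polm had a higher mean. Among factors known at T cell receptor enhancers, Ets1 was at 284 and 213 RPKM in the knockout, against 193 and 206 RPKM in the wild-type. Gata3 was at 135 and 53.8 RPKM in the knockout, against 66.6 and 54.5 RPKM in the wild-type, where OX40-knockout 1 was the high library. Such factors went both ways. Runx1, Tcf3, Bcl11b and Zfp148 also had a higher mean in the knockout, while Tcf7, Myb, Tcf12, Lef1 and Ctcf had a lower mean.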

How the data were processed

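The authors deposited 1 table of RPKM values, 1 column per library, whose header names no unit. Per the submitters' processing notes, Bowtie 0.12.2 and genome build mm8 were used. The annotation, counting tool, strand use and treatment of reads that fit several copies are not stated there, and close copies and overlapping or antisense genes therefore cannot be told apart. Bowtie of that version aligns without gaps, so reads across a V(D)J joint or a splice junction could not be placed whole on germline sequence. GENCODE vM21 (GRCm38) gave symbols for 34490 IDs, lengths and sequences. Its build differs from the one named, so no coordinates are printed.

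Low values of single-transcript genes, as multiples of 1 read, gave each library's total. Reads of 20 segments were whole at the annotated length and of 38 at another length near it (up to 28.7% away, tolerance 0.005 read), so V and constant read numbers may be off by such a factor. D and J values count any overlapping read on a very short feature, which raises their RPKM, so they are compared as reads.

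limma 3.58.1 (R 4.3.3, trend) was fitted on log2(RPKM + 1) over the 11625 genes averaging 1 RPKM or more, without a block, with Benjamini-Hochberg adjustment over all genes and a threshold of 0.05. Log2 differences on that scale understate changes of low genes. The fit was also run on simulated data with a small spread, independent between libraries, and large changes. That run checks the code only and does not show how the fit performs on these libraries. Other steps ran in Python 3.11.15 with pandas 2.3.3, numpy 2.4.6, Biopython 1.88 and matplotlib 3.10.9. Alternatives were another pseudocount, no filter, other scalings, the replicate block and leaving out each library. The segments and lists were chosen with earlier results of these data known. Segments named were the constant genes, V segments of at least 3% of their locus, the most abundant D and J segments and those of lowest p. Others were named after their values were seen.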

Additional observations from a re-analysis of the deposited data

How the results depend on the processing

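With 2 libraries a group and D and J segments of few reads, small differences were not detectable. The gene test called 0 of 11625 genes and 0 of the 54 segments, and 162 genes had an unadjusted p under 0.05. A replicate block gave 5 called genes (373 unadjusted) and 0 segments, and leaving out 1 library each gave between 0 and 1 genes, the 1 without wild-type 2. Same-numbered libraries deviated together (correlation 0.469 over genes), but with 2 numbers and no label saying what they mark, they were not taken to pair the libraries. Segments at an unadjusted p under 0.05 numbered 6, and 13 with the block, where the lowest limma adjusted p was 0.348 (Trdd2). Without 1 library each they numbered 11 (OX40-knockout 1), 10 (OX40-knockout 2), 3 (wild-type 1) and 4 (wild-type 2), beside 524, 3832, 77 and 76 of all genes, with 0 segments called in each.

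The log2 ratio of V sums ran from -0.43 to -0.10 for beta, the weakest without wild-type 1, from 0.07 to 0.19 for gamma and from -1.19 to 1.28 for delta over settings that each left out 1 library. The difference in evenness ran from -0.0155 to 0.00406 for beta, from -0.0357 to 0.0418 for gamma and from -0.0724 to 0.0228 for delta. Scaling by Trbc1 + Trbc2, chosen after seeing the data, gave 16 segments lower and 17 higher in both number 2 libraries, against 8 and 22 as deposited. The shares of all genes under this scaling were not computed, so the change in these counts is not particular to the segments. The cause was not tested. Reads in place of RPKM, leaving out pseudogenes and a filter on V segments left sums and evenness within 1 SD of the values given, as did TMM factors for sums and reads for usage.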
